A study of Danio rerio with 6 samples.

Results

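Keratins, claudins and desmosomal plaque genes were followed in RNA-seq libraries of zebrafish exposed to BP-3 and of controls. Members were all rows of the count tables whose name begins with krt followed by a digit or t, with cyt1, cldn, pkp1 to pkp4, dspa, dspb or evpl, and whose counts summed to at least 30 over the 6 libraries. Of 32053 rows, 61 carried such a name and 58 met the minimum, namely 19 keratins, 31 claudins and 8 desmosomal plaque genes. Just inside the minimum lay cldng with 37 counts and cldn10l2 with 58, and just outside lay cldn10a with 27, cldnd with 24 and cldn18 with 4. A further filter on low counts left 56 members for testing and removed cldng and cldn10l2. One tested member, krt95, cleared the per-library level of that filter in all 3 control libraries but in 2 of the BP-3 libraries.

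The exposed group held 3 libraries from embryos kept in 2 mg/L BP-3, usually short for benzophenone-3, an ultraviolet filter in sunscreens, and the control group held 3 libraries titled WT and labelled control. Both groups were sampled at 5 days after fertilization. The strain field reads only zebrafish, and the tissue is labelled intestinal and was dissected with forceps. In the treatment labels the 3 exposed libraries carry BP-3, BP-4 and BP-5, but their titles and protocol speak of BP-3, so all 3 form 1 group here. The labels do not state a separate origin of the replicates, so p-values speak of the spread among these 6 libraries, which may be technical.

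Total counts lay between 23567603 and 41726516 per library. Of 30 enterocyte markers, all had counts, and they summed to between 9275 and 13236 CPM (counts scaled to library size, as processed below) per library. Markers of tissues other than gut had counts too: 18 skeletal muscle markers summed to between 79112 and 93754 CPM and 15 epidermis markers outside the member families to between 1737 and 2177 CPM. Most of the keratin genes are best known from skin. In such bulk samples fewer cells of a type and less RNA per cell cannot be told apart.

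Keratins form the intermediate filaments of epithelial cells as pairs of an acidic type I and a basic type II protein. At the cell border these filaments are held by desmosomes, where cadherins cross the membrane and plakoglobin, plakophilins and desmoplakin form the plaque that binds the filaments. Toward the basement membrane, hemidesmosomes do the same with integrin and plectin. Claudins are membrane proteins of tight junctions, and the set a cell makes decides which ions and solutes pass between cells. In the zebrafish larva the skin consists of an outer periderm and a basal layer that express different keratins, and the gut is lined by a single layer of enterocytes.

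Exposed and control libraries were compared to learn which of these epithelial genes differed. With edgeR's quasi-likelihood test, adjusted after Benjamini and Hochberg over all 23167 rows tested, 9 of the 56 tested members were lower in BP-3 and 2 higher at a threshold of 0.05. Errors after ± are SE for log2 fold changes and SD for levels. Over all rows 4.29% were called lower, 6.26% higher and 10.6% in either direction. By class, 6 of 19 keratins were lower and 0 higher (5 lower besides krt95), 2 of 29 claudins were lower and 1 higher, and 1 of 8 plaque genes was lower and 1 higher. At an unadjusted p under 0.05 the number of higher keratins was also 0 and that of lower ones 10. By DESeq2 and by limma-voom the number of higher keratins was 0 as well. Of all 23167 rows tested, 3260 were higher and 2785 lower at an unadjusted p under 0.05 by edgeR. At the adjusted threshold DESeq2 called 1672 rows higher and 1280 lower, and limma-voom 1491 and 1031. Counts at these settings further below are to be read beside these. The median log2 fold change was -0.21 for keratins, 0.00014 for claudins and -0.000014 for plaque genes, against -0.00099 over all rows. Keratins sat below the middle of all rows while the other classes sat at it. All members together took 2.72 ± 0.0491% of counts in BP-3 and 3.04 ± 0.0602% in control, and keratins alone took 2.57 ± 0.0518% and 2.89 ± 0.0642% (SD, n = 3). Both shares lean on krt4, krt91 and krt5, the keratins with the most counts, which were not called in this test. Mean levels of krt4 alone were 10101 of 25683 keratin CPM in BP-3 and 11246 of 29036 in control.

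**Figure D1:**
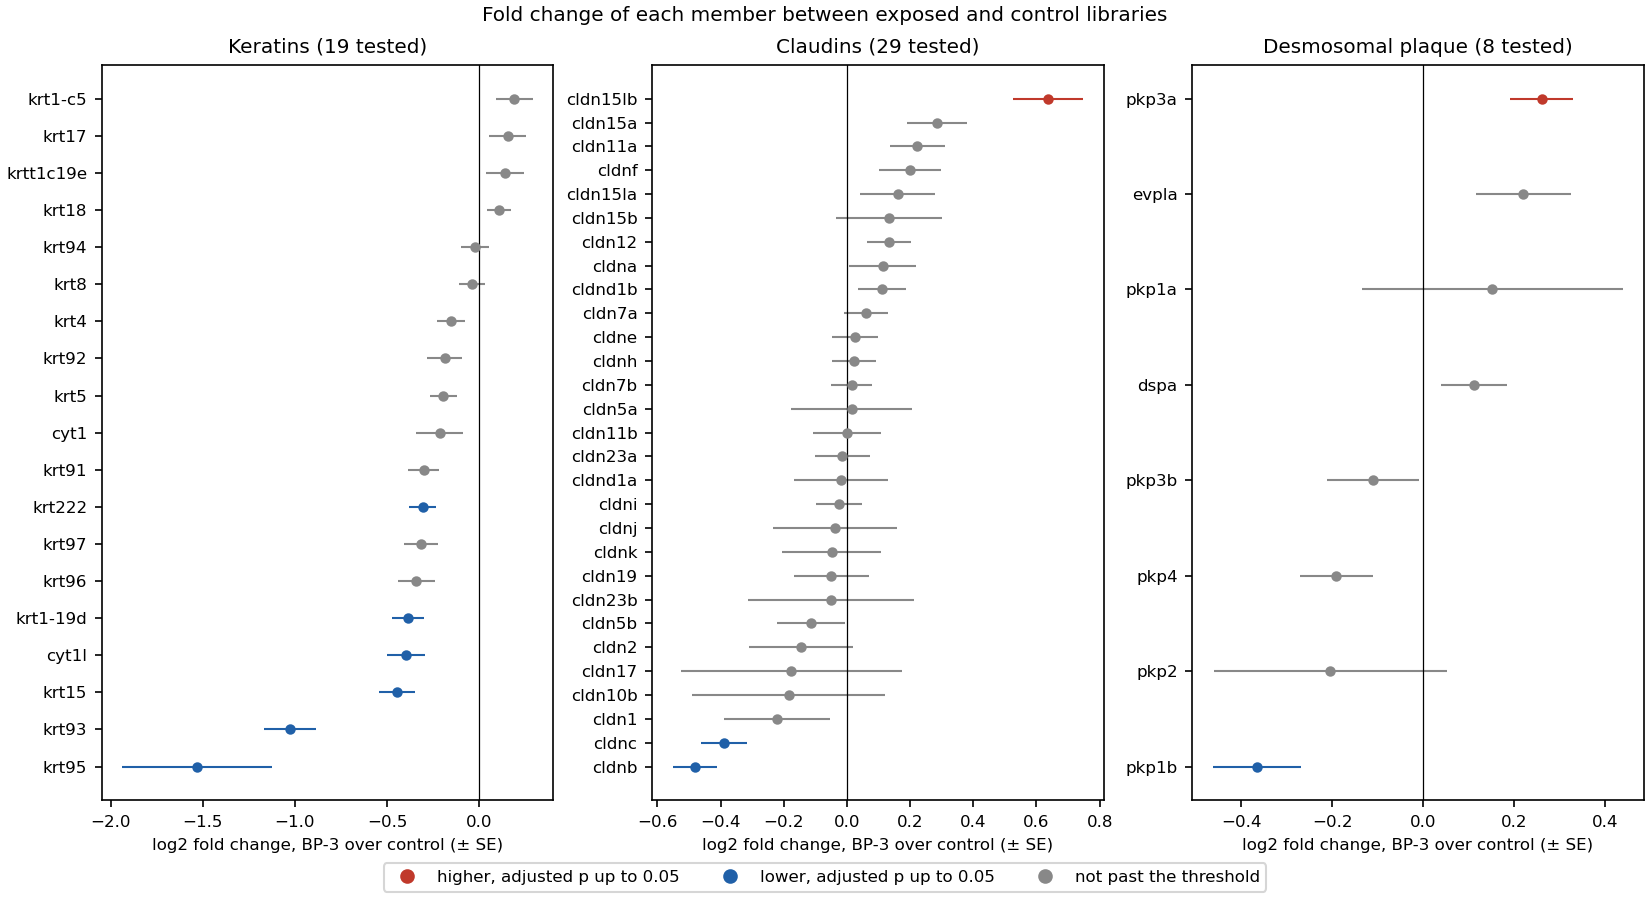
Log2 fold change of BP-3 over control (x axis, ± SE from edgeR) for each tested keratin, claudin and plaque gene (y axis); colours mark an adjusted p up to 0.05, and the x axes differ in range. Of the 19 keratins 15 lie below 0, whereas 14 of 29 claudins and 4 of 8 plaque genes do.

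The 2 libraries numbered 3 deviated together from their group means (r = 0.38). Libraries numbered 1 and 2 correlated as much across numbers (0.16 and 0.15) as within them (0.15 and 0.13). The replicate number was also fitted as a block, a choice made from these same data, so block values are no independent second test. Comparisons within a replicate number carry the same limit, as these correlations do not mark libraries numbered 1 and 2 as pairs. With the block 15 of 19 keratins passed, 13 lower and 2 higher, where 9.84% of all rows were lower, 11.9% higher and 21.7% called in either direction. The unblocked count of 6 keratins rested on several libraries: it was 1 without control replicate 1, 2 without control replicate 2 or BP-3 replicate 2, and 3 without BP-3 replicate 1. Calls over all rows fell too, from 2446 to 1245 and 1287 without control replicates 1 and 2. They fell to 1242 and 1084 without BP-3 replicates 1 and 2. In each of these fits 9 or 10 keratins were lower and 0 higher at an unadjusted p under 0.05 by edgeR. Over all rows 2597 to 2808 were higher and 2146 to 2247 lower at that level there.

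Among the keratins that fell, krt93 had the change best set apart from the spread. It lay at 4.61, 5.16 and 4.16 CPM across exposed replicates 1 to 3 against 8.40, 10.8 and 9.29 CPM across controls 1 to 3. All BP-3 values were below all control values, with means of 4.64 ± 0.499 CPM with exposure against 9.50 ± 1.22 CPM without (SD, n = 3). It was 2.03-fold lower (log2 fold change -1.02 ± 0.14, adjusted p = 0.00167), and its call held when any of the 6 libraries was left out. The lowest keratin in counts, krt95, had 8, 21 and 16 counts with exposure and 50, 37 and 33 without, in replicate order. This made it 2.89-fold lower with a wide error (log2 fold change -1.53 ± 0.41, adjusted p = 0.0395), and its call was lost when any library except BP-3 replicate 3 was left out.

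The type I keratin gene cyt1l fell 1.32-fold (adjusted p = 0.0334). Its levels were 1392, 1443 and 1169 CPM across exposed replicates 1 to 3 against 1844, 1858 and 1572 CPM across controls 1 to 3. Replicate 3 was the lowest library in each group, yet all BP-3 values stayed below all control values. The close relative cyt1, a type I keratin of the outer layer, lay at 2231, 1970.2 and 1749.8 CPM across exposed replicates 1 to 3 against 2543, 2497 and 1866 CPM across controls 1 to 3. Here the groups overlapped, because control replicate 3 was below BP-3 replicates 1 and 2, and the log2 fold change of -0.21 ± 0.13 did not pass (adjusted p = 0.331, and 0.00913 with the replicate block). Reads of such near copies may be split between them, so the division of the change between cyt1 and cyt1l is uncertain.

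For krt15 the values were 369.7, 375 and 309 CPM across exposed replicates 1 to 3 against 505, 505 and 427 CPM across controls 1 to 3. The groups did not overlap and the gene was 1.36-fold lower (adjusted p = 0.0177). Another keratin, krt1-19d, was 1.31-fold lower, at 191 ± 15.3 CPM with exposure against 249.7 ± 20.5 CPM without (SD, n = 3), with adjusted p = 0.0201. The keratin-like gene krt222 lay at 21.9, 22.1 and 21.1 CPM with exposure against 28.0, 26.6 and 26.0 CPM without, a tight pair of groups that did not overlap, and was 1.24-fold lower (adjusted p = 0.0267). Of these, krt15 lost its call without control replicate 1 or 2, krt1-19d also without BP-3 replicate 2, and krt222 and cyt1l when any library except control replicate 3 was left out.

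The 3 keratins with the most counts, krt4, krt91 and krt5, did not pass. The type II gene krt4, whose promoter is widely used to drive transgenes in zebrafish skin, lay at 10211, 9884 and 10209 CPM across exposed replicates 1 to 3 against 11353, 11287 and 11098 CPM across controls 1 to 3. All BP-3 values were below the control values but the difference was 1.11-fold and did not pass (log2 fold change -0.15 ± 0.08, adjusted p = 0.228, and 0.00309 with the replicate block). The other large type II gene of skin, krt5, lay at 3112, 3035 and 3231 CPM across exposed replicates 1 to 3 against 3479, 3580.0 and 3673 CPM across controls 1 to 3, again without overlap and without passing (adjusted p = 0.120, and 0.00168 with the block).

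Among the others, krt91 lay at 3483 ± 218 CPM with exposure against 4292 ± 305 CPM without (SD, n = 3), krt97 at 523 ± 35.5 CPM with exposure against 651 ± 64.0 CPM without (SD, n = 3) and krt92 at 656 ± 55.7 CPM with exposure against 747 ± 76.7 CPM without (SD, n = 3). The first 2 missed the threshold narrowly, with adjusted p = 0.0509 and 0.0510, and passed with the block at 0.000276 and 0.000357; krt92 had adjusted p = 0.251, and 0.00713 with the block. The less counted krt96 lay at 19.6, 18.2 and 21.5 CPM with exposure against 26.1, 22.0 and 26.8 CPM without, with adjusted p = 0.0562, and 0.00683 with the block. In all, 11 of 19 keratins had every BP-3 value below every control value and 1 had every value above, where 14.9% and 16.1% of all rows did so.

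Other keratins lay near or above their control levels. The type I gene krtt1c19e, which marks basal keratinocytes in zebrafish skin, lay at 1678, 1643 and 1396 CPM across exposed replicates 1 to 3 against 1498, 1541 and 1247 CPM across controls 1 to 3. Its log2 fold change was 0.14 ± 0.10 (adjusted p = 0.441), and with the block it was higher at 0.14 (adjusted p = 0.0134). A like pattern was seen for krt17, at 869.8 ± 92.0 CPM with exposure against 782 ± 81.6 CPM without (SD, n = 3), with a log2 fold change of 0.15 ± 0.10 (adjusted p = 0.384, and 0.0101 with the block). For both genes the groups overlapped. Within each replicate number BP-3 was the higher library for both genes, while replicate 3 was the lowest of each group. The gene krt1-c5 had a log2 fold change of 0.19 ± 0.10 (adjusted p = 0.272), and krt94 one of -0.02 ± 0.08 (adjusted p = 0.879).

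Simple keratins, the pair formed by krt8 (type II) and krt18 (type I) in single-layered epithelia, were not called in either fit. The values of krt8 were 1174, 1131 and 1100.4 CPM across exposed replicates 1 to 3 against 1189, 1202 and 1110.1 CPM across controls 1 to 3, which overlapped, and its log2 fold change of -0.04 ± 0.07 had a 95% interval of -0.20 to 0.12. For krt18 they were 205, 200.1 and 212 CPM across exposed replicates 1 to 3 against 196, 189.7 and 189 CPM across controls 1 to 3, all BP-3 values above all control values, with a log2 fold change of 0.11 ± 0.06 and a 95% interval of -0.04 to 0.25. Neither reached an unadjusted p under 0.05. Ratios between genes are of CPM, not per length, and serve only to compare libraries. The ratio of krt8 to krt18 was 5.72, 5.65 and 5.18 with exposure and 6.08, 6.34 and 5.89 without, in replicate order. The ratio of the type II gene krt5 to the type I gene krtt1c19e was 1.85, 1.85 and 2.31 in BP-3 and 2.32, 2.32 and 2.95 in control, lower in BP-3 within each replicate number. With 3 against 3 libraries an exact two-sided permutation test of such a ratio cannot go below p = 0.1, so none was tested.

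**Figure D2:**
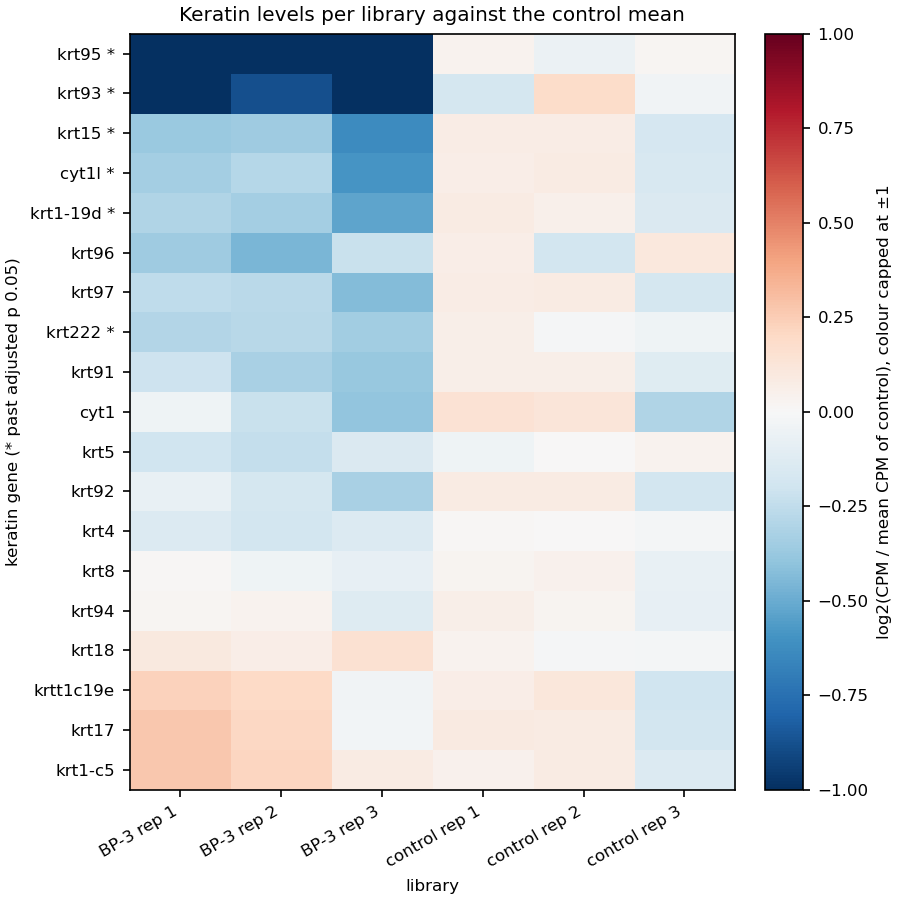
Each of the 19 keratins (rows, ordered by fold change) in each of the 6 libraries (columns), coloured by log2 of CPM over the control mean and capped at ±1; asterisks mark an adjusted p up to 0.05 by edgeR. BP-3 libraries are blue for most rows, and red or near white for krt18, krtt1c19e, krt17, krt1-c5, krt8 and krt94.

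Neighbouring keratin genes did not all go one way. In the gene order of the RefSeq annotation of GRCz12tu, in which 57 of 58 members were found by symbol or synonym, members at most 5 protein-coding genes apart were taken as neighbours. A run of 7 type I keratin genes held krt1-19d, krtt1c19e, krt92, cyt1l, cyt1, krt17 and krt91, of which krt1-19d and cyt1l were called lower. Inside this run the log2 fold changes went from -0.40 for cyt1l to 0.15 for krt17. A run of 3 held krt93, krt94 and krt15, with log2 fold changes of -1.02, -0.02 and -0.45. Another joined krt222, krt97 and krt96, at -0.31, -0.32 and -0.34, and another krt5, krt8 and krt18, at -0.19, -0.04 and 0.11.

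Epidermis markers outside the member families gave a level to set beside the keratins. Of 15 such genes, 2 fell and 0 rose, with a median log2 fold change of -0.04, and by DESeq2 3 fell and 0 rose, whereas 4 were lower and 2 higher at an unadjusted p under 0.05. With the block 5 were lower and 1 higher. Their summed level was 1737 to 2020 CPM in BP-3 and 1913 to 2177 CPM in control, so the groups overlapped. That sum leans on a few genes with high levels, icn first, and is no measure of the list as a whole. Levels of icn were 544, 490 and 319 CPM with exposure against 532, 525 and 410 CPM without, which overlapped. Of the 15 genes 9 had a log2 fold change below 0 and 6 above. The annexin genes anxa1c and anxa1a were the 2 that fell, by 1.38-fold (adjusted p = 0.00355) and 1.24-fold (adjusted p = 0.0355); anxa1c lay at 110.3, 108 and 108 CPM with exposure against 145, 162 and 142 CPM without. The call of anxa1a was lost when any library except control replicate 3 was left out, which leaves anxa1c alone. Of 18 epidermal transcription factor genes 0 passed by edgeR, DESeq2 or limma-voom, 2 were higher at an unadjusted p under 0.05, and with the block 2 were higher. Those 2 were grhl2b, an epithelial grainyhead factor, with a log2 fold change of 0.38 ± 0.12 (block adjusted p = 0.00680), and tp63, the master regulator of basal epidermis, with 0.19 ± 0.07 (block adjusted p = 0.0400). They were named after their values were seen. The part of skin content in the keratin result was not tested.

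Of 29 tested claudins 2 were called lower and 1 higher, where 4.29% and 6.26% of all rows were. The epithelial gene cldnb, known from the lateral line and skin of zebrafish, lay at 50.7, 51.4 and 46.9 CPM across exposed replicates 1 to 3 against 69.0, 71.5 and 67.6 CPM across controls 1 to 3. Every BP-3 value was below every control value and the gene was 1.40-fold lower (log2 fold change -0.48 ± 0.07, adjusted p = 0.00256). Its neighbour cldnc, which RefSeq lists as cldn3d, lay at 19.7, 20.5 and 20.2 CPM across exposed replicates 1 to 3 against 26.9, 26.6 and 25.4 CPM across controls 1 to 3. It too had no overlap and was 1.31-fold lower (log2 fold change -0.39 ± 0.07, adjusted p = 0.00898). The third gene of this run, cldnh (cldn3c in RefSeq), lay at 76.4, 79.8 and 73.8 CPM with exposure against 78.1, 73.0 and 75.5 CPM without, which overlapped, with a log2 fold change of 0.02 ± 0.07 and a 95% interval of -0.13 to 0.17.

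One claudin rose. The values of cldn15lb were 13.4, 13.0 and 11.8 CPM across exposed replicates 1 to 3 against 8.84, 8.33 and 7.35 CPM across controls 1 to 3, all BP-3 values above all control values. It was 1.56-fold higher (log2 fold change 0.64 ± 0.11, adjusted p = 0.00595). All 3 claudin calls held when any 1 of the 6 libraries was left out. With BP-3 replicate 1 as the only exposed library all 3 kept their sign but not their call, and the spread with exposure is unknown.

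Other claudins of the claudin 15 group lay on the same side without passing. The enterocyte claudin cldn15la lay at 74.1, 72.0 and 58.0 CPM across exposed replicates 1 to 3 against 62.2, 68.5 and 51.9 CPM across controls 1 to 3. Its groups overlapped and replicate 3 was the lowest in both (log2 fold change 0.16 ± 0.12, adjusted p = 0.436). For cldn15a, which in zebrafish takes part in opening the gut lumen, the levels were 19.9, 24.7 and 21.5 CPM with exposure against 18.2, 17.7 and 18.3 CPM without. These did not overlap, with a log2 fold change of 0.29 ± 0.09 that did not pass (adjusted p = 0.0836) and passed with the block (adjusted p = 0.0398). The log2 fold change of cldn15b was 0.13 ± 0.17 (adjusted p = 0.667). Enterocyte markers moved beside these genes, but not all of them: of 30, 12 rose, 2 fell (cubn and chia.3) and 16 were not called. Summed, they gave 12766 to 13236 CPM with exposure against 9275 to 9669.7 CPM without. That sum leans on a few genes with high levels and is no measure of the list as a whole. Mean levels of apobb.1 were 5252 CPM with exposure against 3479 CPM without, and those of apoa1a 1759 CPM against 935 CPM. The part of the enterocyte markers in the claudin result was not tested.

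Apart from cldnb, which was lower, the epithelial claudins with the most counts did not differ by more than their spread. Levels of cldni were 202 ± 14.6 CPM with exposure against 206 ± 4.59 CPM without (SD, n = 3), those of cldn7b 109 ± 1.67 CPM with exposure against 108 ± 3.67 CPM without (SD, n = 3) and those of cldne 105 ± 3.77 CPM with exposure against 103 ± 6.72 CPM without (SD, n = 3). The 95% intervals of their log2 fold changes were -0.19 to 0.14, -0.13 to 0.16 and -0.14 to 0.19. For cldn7a the interval was -0.09 to 0.21, and for cldn1, which in mammals seals the skin barrier, a wider -0.59 to 0.15. A run of 4 neighbouring genes, cldnj, cldne, cldnf and cldna, held no call by edgeR, and none of them had an unadjusted p under 0.05.

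Claudins tied to other tissues were not called either. The endothelial gene cldn5b had a log2 fold change of -0.11 ± 0.11 and its paralog cldn5a, of the brain barrier, one of 0.01 ± 0.19. The myelin claudin cldnk lay at 14.6, 14.9 and 11.4 CPM with exposure against 15.8, 15.7 and 10.8 CPM without, lowest in replicate 3 of both groups, with a log2 fold change of -0.05 ± 0.16. The log2 fold change of cldn11a was 0.22 ± 0.09 (adjusted p = 0.134) and that of cldn19 was -0.05 ± 0.12. Among markers, the list of 14 endothelial genes includes cldn5b itself. Of the 14, 1 rose and 0 fell by edgeR and limma-voom (2 rose by DESeq2, and 4 were higher at an unadjusted p under 0.05). Of 8 myelin genes 3 fell and 0 rose, and by DESeq2, limma-voom or an unadjusted p under 0.05 the counts were again 3 lower and 0 higher. The remaining tested claudins had log2 fold changes between -0.18 for cldn10b and 0.20 for cldnf.

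**Figure D3:**
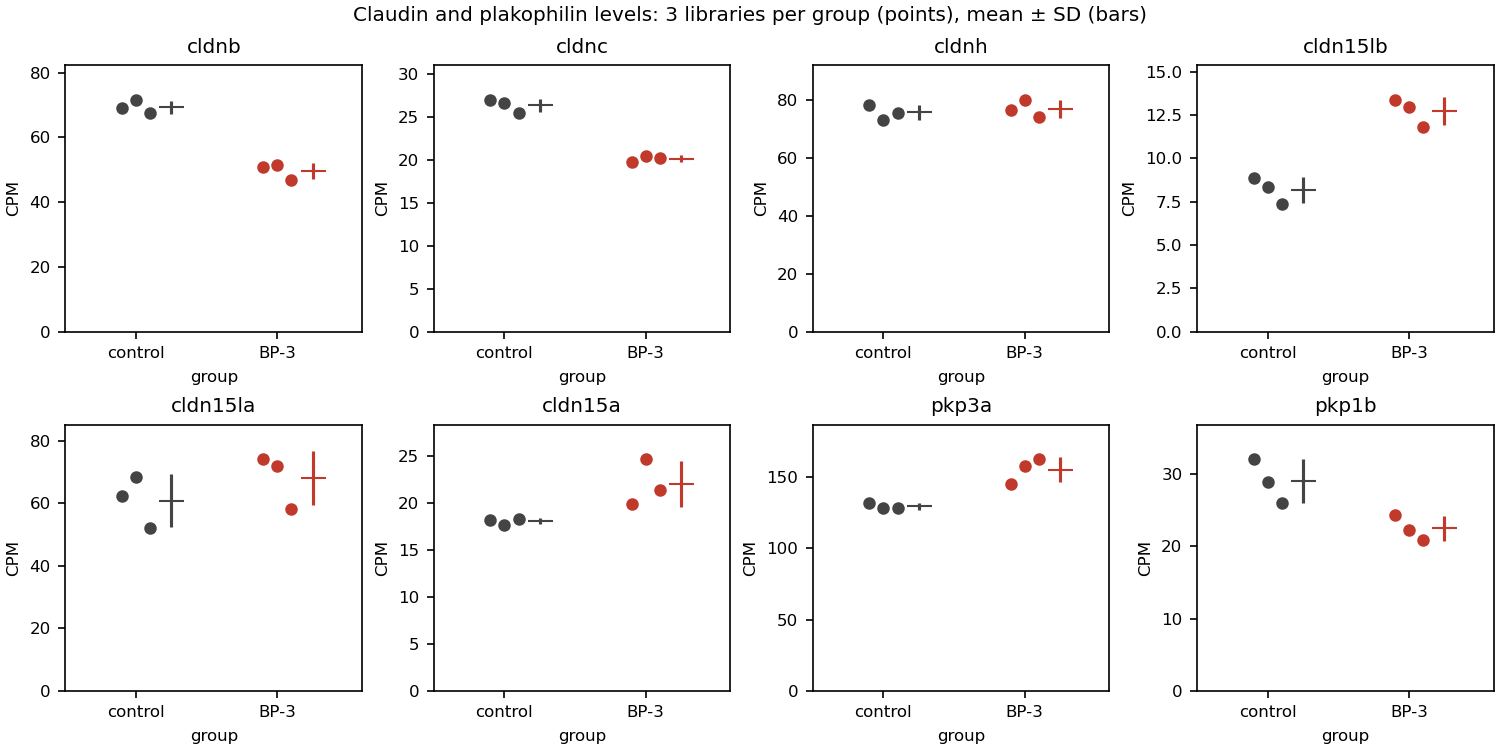
CPM (y axis, from 0) of 6 claudins and 2 plakophilins in control and BP-3 (x axis); points are the 3 libraries of a group and the bar beside them the mean ± SD. The groups separate for cldnb, cldnc, cldn15lb, cldn15a, pkp3a and pkp1b, and overlap for cldnh and cldn15la. The genes shown were picked. Of all 29 tested claudins 2 had every BP-3 value below control and 5 every value above, and of 8 plaque genes 2 and 1. Over all tested rows 31% had groups that did not overlap.

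In the desmosomal plaque, plakophilins changed in both directions. The gene pkp3a, a plakophilin of most epithelia, lay at 145, 157 and 162 CPM across exposed replicates 1 to 3 against 132, 128 and 128 CPM across controls 1 to 3, all BP-3 values above all control values. It was 1.20-fold higher (log2 fold change 0.26 ± 0.07, adjusted p = 0.0393). The gene pkp1b is a zebrafish counterpart of the plakophilin that in mammals strengthens skin desmosomes. It lay at 24.4, 22.2 and 20.9 CPM across exposed replicates 1 to 3 against 32.1, 29.0 and 26.0 CPM across controls 1 to 3. All BP-3 values were below all control values, and pkp1b was 1.29-fold lower (log2 fold change -0.37 ± 0.10, adjusted p = 0.0396). Both calls sat near the threshold: pkp3a lost its call when any single library was left out, and pkp1b when any except control replicate 3 was. The count of 2 plaque genes thus became 0 without any of BP-3 replicates 1, 2 and 3 or control replicates 1 and 2 by edgeR, and 1 without control replicate 3. In those 5 fits 2 or 3 plaque genes had an unadjusted p under 0.05 by edgeR. Over all rows 2597 to 3138 were higher and 2146 to 2771 lower at that level there.

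The other plaque members did not pass. Desmoplakin, which links keratin to the plaque, is encoded by dspa, whose levels were 156, 162 and 174 CPM with exposure against 155, 143 and 158 CPM without, overlapping by BP-3 replicate 1 and control replicate 3 (log2 fold change 0.11 ± 0.07, adjusted p = 0.377). The envoplakin gene evpla, a plakin that binds keratin and periplakin, lay at 132, 139 and 165 CPM across exposed replicates 1 to 3 against 116, 118 and 141 CPM across controls 1 to 3. The groups overlapped, as control replicate 3 lay above BP-3 replicates 1 and 2. BP-3 was the higher library within each replicate number, and the log2 fold change of 0.22 ± 0.10 for evpla did not pass (adjusted p = 0.213, and 0.00637 with the block). The gene evpla also passed when both replicate 3 libraries were left out, a fit that like the block is no independent second test. Calls over all rows rose from 2446 to 3894 in that fit. The armadillo gene pkp4, also found at adherens junctions, lay at 21.9, 24.7 and 22.1 CPM with exposure against 27.1, 26.1 and 25.2 CPM without, without overlap and without passing (log2 fold change -0.19 ± 0.08, adjusted p = 0.166). The log2 fold changes of pkp3b, pkp2 and pkp1a were -0.11 ± 0.10, -0.20 ± 0.26 and 0.15 ± 0.29, the latter 2 at means under 3 CPM.

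Desmosome genes outside the member families were read from a list of which 7 were tested. Of these, 3 rose and 0 fell, with a median log2 fold change of 0.17, and at an unadjusted p under 0.05 as well as by DESeq2 and limma-voom the counts were the same. The desmosomal cadherin gene dsg2.1 lay at 65.8, 70.6 and 64.2 CPM across exposed replicates 1 to 3 against 49.1, 51.6 and 46.4 CPM across controls 1 to 3, without overlap, and was 1.36-fold higher (adjusted p = 0.00512). The desmocollin gene dsc2l rose 1.20-fold (adjusted p = 0.0328) and perp, a desmosome membrane gene that p63 controls in mice, rose 1.22-fold (adjusted p = 0.0287). The plakoglobin gene jupa and the periplakin gene ppl had log2 fold changes of 0.10 ± 0.07 and 0.06 ± 0.08, neither past the threshold. Only dsg2.1 kept its call without BP-3 replicate 1, 2 or 3 or control replicate 1 or 2; without control replicate 3 the count stayed at 3.

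Hemidesmosome genes changed in both directions, with 3 of 12 tested genes higher, 1 lower and a median log2 fold change of 0.12. The integrin genes of the basal surface led them. Levels of itgb4 were 143, 144 and 159 CPM across exposed replicates 1 to 3 against 90.3, 88.6 and 97.2 CPM across controls 1 to 3, and it was 1.62-fold higher (adjusted p = 0.000417). Its partner itga6b lay at 115, 96.5 and 92.6 CPM across exposed replicates 1 to 3 against 58.1, 54.0 and 60.4 CPM across controls 1 to 3, 1.77-fold higher (adjusted p = 0.000574). For both genes the groups stood well apart. The plectin gene plecb was 1.26-fold higher (adjusted p = 0.0462), while itga6a, the paralog of itga6b, was 1.26-fold lower (adjusted p = 0.0475).

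The collagen genes col17a1a and col17a1b, chosen after their values were seen, had log2 fold changes of -0.12 ± 0.07 and -0.23 ± 0.08, not past the threshold (adjusted p = 0.277 and 0.121, and 0.0388 and 0.0347 with the block). A second plectin gene, pleca, was at 18.1 CPM in control replicate 3 against 240.4 and 239.6 CPM in control replicates 1 and 2, and was not called. With the block 4 hemidesmosome genes were higher and 4 lower. The count of 4 called genes was 2, namely itgb4 and itga6b, when replicate 1 or 2 of either group was left out.

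**Figure D4:**
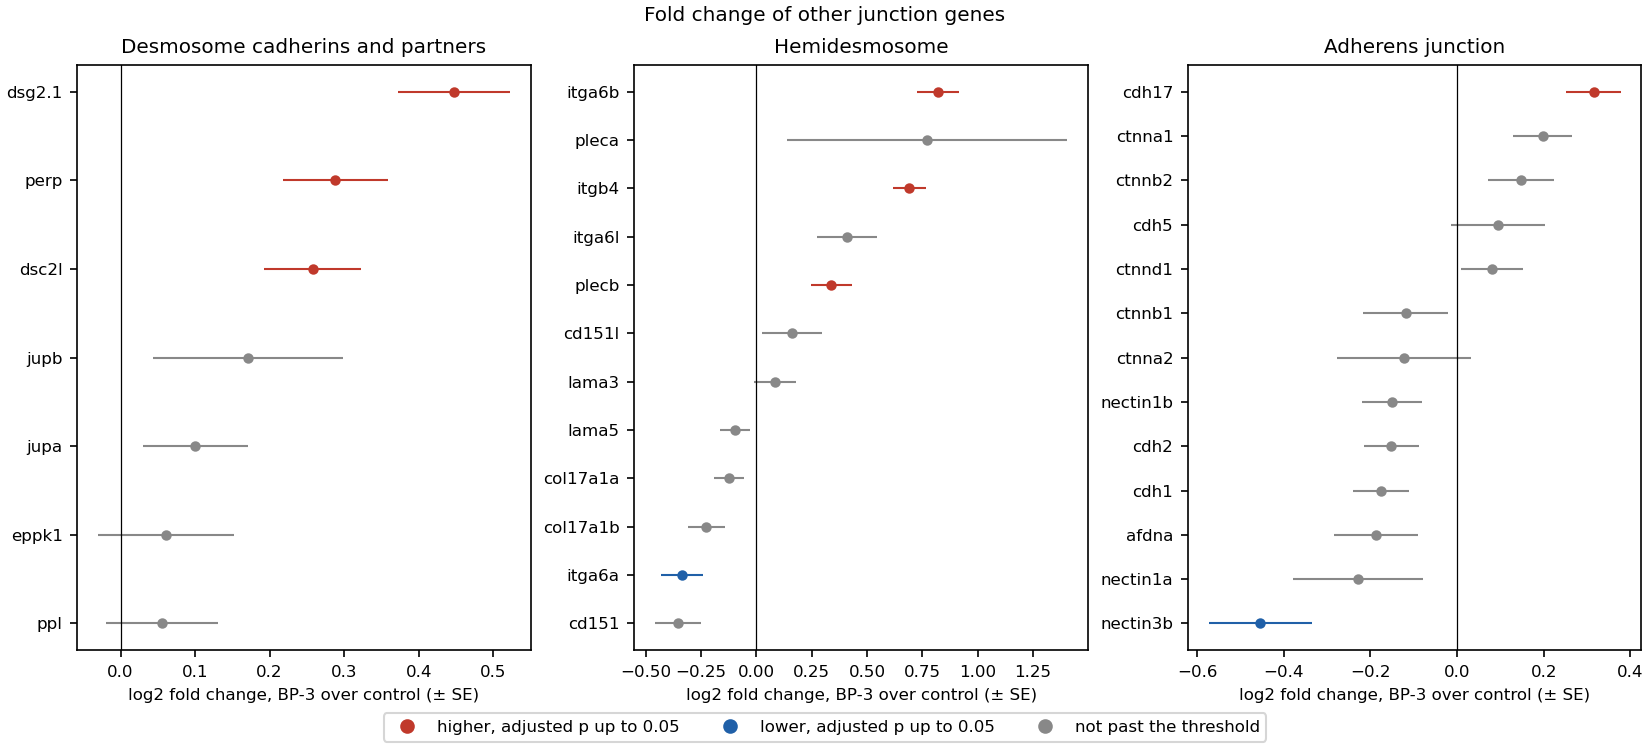
Log2 fold change of BP-3 over control (x axis, ± SE from edgeR) for other desmosome, hemidesmosome and adherens junction genes (y axis); colours mark an adjusted p up to 0.05, and the x axes differ in range. The integrin genes itgb4 and itga6b lie at 0.69 and 0.82, whereas all 7 desmosome genes lie above 0 and 8 of 13 adherens junction genes below it.

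Tight junction genes other than claudins, scaffolds and adhesion molecules among them, rose in 1 of 33 cases and fell in 0, with a median log2 fold change of -0.04; 2 were higher and 9 lower at an unadjusted p under 0.05, and by DESeq2 and limma-voom 3 and 2 were lower. The gene that rose was f11r.2, a junctional adhesion molecule, 1.72-fold higher at 4.34, 4.21 and 4.16 CPM with exposure against 2.89, 1.96 and 2.52 CPM without (adjusted p = 0.0225). With the block 7 partners were lower and 2 higher. That set includes the scaffold gene tjp3, with a log2 fold change of -0.25 ± 0.07 (adjusted p = 0.0529, and 0.0111 with the block), and the occludin gene oclna, with -0.26 ± 0.11 (adjusted p = 0.176, and 0.00899 with the block), both chosen after their values were seen. The single unblocked call was lost without BP-3 replicate 1, BP-3 replicate 2 or control replicate 2, whereas leaving out BP-3 replicate 3 gave 2 called partners and leaving out control replicate 3 gave 4.

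Of 13 adherens junction genes 1 rose and 1 fell, and with the block 3 were higher and 4 lower. The intestinal cadherin gene cdh17 was 1.24-fold higher, at 198, 207 and 207 CPM with exposure against 163, 164 and 165 CPM without (adjusted p = 0.0119). The nectin gene nectin3b was 1.37-fold lower (adjusted p = 0.0382). Epithelial cadherin, cdh1, lay at 113, 119 and 113 CPM with exposure against 129, 132 and 128 CPM without, without overlap, and did not pass (adjusted p = 0.113, and 0.0191 with the block). Of these calls 0 remained without BP-3 replicate 2, control replicate 1 or control replicate 2, and 1 without any of the other 3 libraries. In the 3 fits with 0 calls, 2 to 4 genes had an unadjusted p under 0.05 by edgeR. Over all rows 2597 to 2808 were higher and 2146 to 2247 lower at that level in those fits.

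Other intermediate filament genes fell in 2 of 19 cases and rose in 0, with a median log2 fold change of -0.10; 3 were lower and 2 higher at an unadjusted p under 0.05, by DESeq2 and limma-voom 2 fell and 0 rose, and with the block 3 were lower and 2 higher. The vimentin gene vim, of mesenchymal and other cells, lay at 103, 102 and 103 CPM across exposed replicates 1 to 3 against 155, 161 and 140.3 CPM across controls 1 to 3, 1.48-fold lower (adjusted p = 0.00115). The lens filament gene bfsp2 was 1.46-fold lower (adjusted p = 0.00857). Lens markers moved beside it, with 9 of 14 lower, bfsp2 itself among them, and 0 higher and a summed level of 2932 to 3630 CPM in BP-3 and 4377 to 5211 CPM in control, and their part in this result was not tested.

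Markers of 4 further tissues were counted. Of 21 hepatocyte genes 14 rose and 1 fell, with a summed level of 8270.3 to 9488 CPM in BP-3 and 5264 to 6091 CPM in control. Goblet cell genes rose in 2 of 4 cases, and notochord genes in 2 of 10 with 1 lower. Of 18 skeletal muscle genes 0 passed by edgeR and limma-voom and 2 were lower by DESeq2, while 3 were lower and 1 higher at an unadjusted p under 0.05, and with the block 9 were lower and 2 higher. The notochord count of 3 called genes was 0 without BP-3 replicate 1, BP-3 replicate 2 or control replicate 2, and the myelin count of 3 was 0 without BP-3 replicate 1 or control replicate 2.

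Genes were sought whose log2(CPM + 1) over the 6 libraries ran most like the called members with the largest changes. Members and rows searched both needed a mean of at least 1 CPM, which left out krt95, the member with the largest change. For krt93 the closest genes were lrfn2b, tenm4 and peli2, each with a Pearson correlation of 0.996 to 0.998. For cldn15lb they were sar1b, fbl and nt5c2l1, with correlations of 0.999 each, and for cldnb they were klhl31, bicdl2l and mpped2a, at 0.996 or above. The 6 libraries share the 2 groups, so any gene that differs between them correlates with these members.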

How the data were processed

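RNA-seq counts were analysed from 3 BP-3 and 3 control libraries. For every library the authors deposited a table of counts, whole numbers by gene name that carry no normalization. The only build in the submitters' processing notes is mm9, of mouse, while the rows bear zebrafish symbols, so no coordinates are printed. Not given in the sources used here: aligner, counter, annotation and strand setting. Reads of overlapping, antisense or near-identical genes cannot be told apart. Counts include copies made by PCR, so their precision covers counting error only.

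Rows were filtered with filterByExpr, which left 23167 of 32053, and scaled by TMM. The main test was edgeR 4.0.16 under R 4.3.3 (glmQLFit, glmQLFTest, no covariate), with Benjamini-Hochberg adjustment over all rows tested and a threshold of 0.05. SE is the log2 fold change over the root of its F statistic. CPM is scaled by TMM factors and not by gene length, so levels are not compared between genes. Correlations used a pseudocount of 1 CPM. The test was checked on simulated counts with a small set of changed genes and no deviation shared between libraries. That setting is simpler than these data, and changes as small as those of most called members were not simulated. No 2 libraries agreed within sampling noise (chi-square per degree of freedom at least 5.34).

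Same-numbered libraries deviated together from their group means over all tested rows (r = 0.15, 0.13 and 0.38 for replicates 1, 2 and 3). Libraries numbered 1 and 2 correlated as much across numbers (0.15 and 0.16), so only replicate 3 stood apart. The labels name no batch. Fitting the replicate number from the titles as a block was thus a choice and does not rest on known pairs. Alternatives were DESeq2 1.42.0, limma-voom (limma 3.58.1), other scalings and filters, the block, each library left out, both replicate 3 libraries left out, and BP-3 replicate 1 alone. Figures used matplotlib 3.10.9.

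Members, gene lists and tests were chosen with earlier results of these data known. Simple keratins are krt8 and krt18. Genes named are all members past the threshold, the 6 members with most counts per class, a fixed panel, and up to 4 called genes per list; neighbours, extremes and other names were chosen after their values were seen. Lists cover desmosome, hemidesmosome, tight and adherens junctions, intermediate filaments, epidermal transcription factors, and markers of epidermis, enterocytes, goblet cells, hepatocytes, notochord, endothelium, myelin, lens and muscle. The genes bfsp1, bfsp2, cdh17, cdh5, col17a1a, col17a1b and tp63 each stand in more than 1 list. One gene of the hemidesmosome list is not reported here.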

Additional observations from a re-analysis of the deposited data

How the results depend on the processing

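Over all rows, 2446 were called; 5026 were with the replicate block, 3894 with both replicate 3 libraries left out, 435 with BP-3 replicate 1 alone, and 1084 to 2494 with 1 library left out. Of keratins 6 were called; 10 were by DESeq2, 15 with the replicate block, 15 without both replicate 3 libraries, 2 (krt93 and krt95) with BP-3 replicate 1 alone, and 1 to 7 with 1 library left out. Claudins stayed at 3 called with 1 library left out and fell to 0 with BP-3 replicate 1 alone. Plaque genes went from 2 to 0 or 1 with 1 library left out and to 0 with BP-3 replicate 1 alone, with 0 at an unadjusted p under 0.05. In that alternative the lone library is assumed to vary like the controls, and fewer samples enter. Other scalings and filters and limma-voom left all 4 counts within 1.5 times; among members the block changed no call other than those given with each gene. For single genes outside the leave-one-out fits, 616 of 693 values kept their direction and side of the threshold, 34 lost and 32 gained the call, and 11 changed sign, none of them called. With BP-3 replicate 1 alone these were cldn1 (0.12), cldn5a (-0.22), cldn7b (-0.0042), cldni (0.015), cldnk (0.047), krt8 (0.011), krt94 (0.022), pkp1a (-0.25), pkp2 (0.021) and pkp3b (0.023), and without both replicate 3 libraries cldni (0.027). With 1 library left out the log2 fold change ranged across 0 for cldn19 (-0.14 to 0.041), cldn5a (-0.14 to 0.27), cldn7b (-0.012 to 0.034), cldne (-0.019 to 0.074), cldnh (-0.0066 to 0.049), cldni (-0.064 to 0.033), cldnk (-0.20 to 0.058), krt94 (-0.064 to 0.026), pkp1a (-0.057 to 0.34) and pkp2 (-0.36 to 0.038). Most of the 34 lost calls fell in the fit with BP-3 replicate 1 alone. With 1 library left out, 5 to 21 of the 77 named genes lost their call, fewest without control replicate 3. Depth limits krt95, pkp1a, pkp2 and the claudins under 3 CPM.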
